A study of Ovis aries with 2 samples.

Results

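The cells described here carried the transcript of HAND2 together with that of GATA4 or TBX5, and no transcript of TBX4. They were proposed as splanchnic and heart-field mesoderm, the inner layer of the lateral plate and its cardiac region, and the data were checked against that name before any other result. RNA of single cells came from 1 library of pooled Ujumqin sheep embryos, the control breed of the study, and 1 library of pooled Hulunbuir sheep embryos, its experimental breed, both at embryonic day 16. Ujumqin sheep have a fat tail and Hulunbuir sheep a smaller one. No gene was altered. Per the study, the ewes of both breeds were given progesterone from a vaginal sponge and the gonadotropin PMSG before they were mated, so both groups share these hormones. Per the study, the embryos were freed of extraembryonic tissue, dissociated with enzymes, treated to lyse red cells and pooled by breed, so the embryos within a library cannot be separated.

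Members were chosen by measured values in both libraries. A kept cell had at least 200 genes detected and under 10% of its UMIs (unique molecular identifiers, 1 for each captured RNA molecule) on mitochondrial genes. A member had at least 1 UMI of HAND2, at least 1 UMI of GATA4 or TBX5, 0 UMIs of TBX4, under 5 UMIs over ACTC1 and TNNC1 (cardiac actin and troponin C), and under 200 per 10000 UMIs over AHSG, AFP, TTR and SERPINA1, which mark yolk sac endoderm and liver. These limits gave 217 of 14554 kept Ujumqin cells, which is 1.49% (95% interval 1.30 to 1.70%), and 333 of 9583 kept Hulunbuir cells, which is 3.47% (3.12 to 3.86%). In all, 550 of 24137 cells were members. Intervals are exact binomial for shares and exact Poisson for levels, and they cover counting error only. With 1 library per breed there is no test between the breeds, and breed and library cannot be told apart.

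HAND2, GATA4, GATA6, TBX5 and FOXF1 encode transcription factors of the embryonic lateral plate. HAND2 is a bHLH factor needed for the right ventricle and the posterior limb bud. GATA4 and GATA6 are zinc finger factors that act in cardiac progenitors and also in visceral endoderm, and TBX5 is a T-box factor of the heart and forelimb field. FOXF1 answers to Hedgehog signals in splanchnic and extraembryonic mesoderm. TBX4, the closest relative of TBX5, acts in the hindlimb and in the allantois, the extraembryonic mesoderm that carries the umbilical vessels. HAND2, GATA6 and FOXF1 are therefore shared between heart, gut wall and extraembryonic mesoderm. The cardiac name rests on genes such as NKX2-5 and ISL1, while TNNT2 marks heart muscle.

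The rule narrowed the cells in unequal steps. HAND2 was found in 1610 Ujumqin and 3801 Hulunbuir kept cells. Of these, 305 and 533 also had GATA4 or TBX5, and 218 and 337 of them had no TBX4. The limit on ACTC1 and TNNC1 then removed 1 Ujumqin and 4 Hulunbuir cells, and the limit on the liver-type genes removed none. Among barcodes that failed the cell filter, 1 Ujumqin and 3 Hulunbuir barcodes met the rest of the rule. No barcode of a member was shared between the libraries, although 50 kept barcodes were.

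Most members sat at the edge of the GATA4 and TBX5 condition. HAND2 was seen as a single UMI in 53 of 217 Ujumqin and 115 of 333 Hulunbuir members, and as 3 or more UMIs in 115 and 135. GATA4 alone qualified 147 Ujumqin and 182 Hulunbuir members, TBX5 alone 60 and 127, and both genes were found together in 10 and 24. At least 2 UMIs of GATA4 or of TBX5 were present in only 21 Ujumqin members (9.68%) and 22 Hulunbuir members (6.61%). The cells just outside this condition had 0 UMIs of either gene, so a single molecule separated inside from outside. ACTC1 and TNNC1 were at 0 UMIs in 188 and 284 members, the highest members reached 4 UMIs (0 Ujumqin and 3 Hulunbuir cells), and the cells outside had 5 or more. The liver-type genes reached at most 7.68 per 10000 UMIs in a Ujumqin and 0.306 in a Hulunbuir member.

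Membership moved with sequencing depth. Members had a median of 35863 UMIs and 3474 genes in Ujumqin and 20888 UMIs and 2913 genes in Hulunbuir. When the HAND2 cells without TBX4 were divided into 4 bins of equal size by UMI count, the share that qualified was 5.14%, 13.9%, 20% and 31.0% in Ujumqin, at median depths of 5018, 23074.5, 31517 and 52123.5 UMIs. In Hulunbuir it was 3.44%, 5.73%, 16.3% and 22.2%, at 5731.5, 12696, 18253 and 25842 UMIs. The deepest bin therefore held the highest share in both libraries. With every cell thinned to 5000 UMIs before the rule was applied, 14 Ujumqin and 61 Hulunbuir cells qualified.

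The libraries differed in ways that touch several results. Their kept cells held 209576780 UMIs in Ujumqin and 128654663 in Hulunbuir, of which the members contributed 4.42% and 5.66%. Cells with at least 20 per 10000 UMIs over the erythroid genes ALAS2, AHSP, SLC4A1, HEMGN and KLF1 numbered 2335 in Ujumqin and 1 in Hulunbuir. HAND2 was found in 11.5% of the other non-erythroid Ujumqin cells and in 37.5% of the Hulunbuir ones. Those cells had median depths of 4559.5 and 11555 UMIs. Thinned to 2000 UMIs, without cells below that depth, the shares were 3.58% and 11.1%. Scrublet, a doublet score, ranked 19 Ujumqin and 56 Hulunbuir members among the highest 13.6% and 8.57% of its library, a limit set from the number of barcodes. No cell was removed for this score.

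The heart-field name was checked first. Levels below are counts per 1000000 (CPM), the summed UMIs of a gene over all UMIs of the members, given for Ujumqin and then Hulunbuir. NKX2-5, the earliest cardiac homeobox gene, had 0 UMIs in both libraries, as had NKX2-6 and the ventricular gene IRX4. NKX2-5 was found in 0% of the other non-erythroid Ujumqin cells and 0.0216% of the Hulunbuir ones, so its 0 does not set the members apart. A count of 0 in the members allows a level of up to about 0.324 CPM in Ujumqin and 0.412 CPM in Hulunbuir. This limit is 3 counts over the members' total and not the exact Poisson interval. ISL1, which marks the second heart field, had 0.108 CPM (0.00273 to 0.601) and 1.51 CPM (0.753 to 2.70). Its UMIs came from 1 of 217 and 11 of 333 members. HAND1, the partner of HAND2 in the left ventricle and in extraembryonic mesoderm, had 1.29 CPM (0.669 to 2.26) and 4.12 CPM (2.78 to 5.88).

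Factors that the heart shares with other mesoderm were better represented. TBX20, a T-box repressor of the heart and lateral plate, had 9.27 CPM (7.42 to 11.5) and 22.2 CPM (18.9 to 25.9). SMARCD3, a chromatin remodelling subunit of cardiac progenitors, had 13.3 CPM (11.0 to 15.8) and 17.3 CPM (14.4 to 20.6). Both lay close to its level in the HAND2 cells with TBX4, where TBX20 had 8.45 and 18.9 CPM and SMARCD3 12.5 and 16.5 CPM. TBX3, a T-box repressor, had 7.87 and 9.19 CPM in the members, MEIS1 6.90 and 12.1 CPM.

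Most heart muscle genes were near 0. TNNT2, cardiac troponin T, had 0 and 0.137 CPM. MYL7, the atrial light chain, had 0.431 and 0.961 CPM, MYH6 had 0.108 and 0.274 CPM, and NPPA and MYL2 had no UMI. These genes were not in the rule, which limited only ACTC1 and TNNC1. Exceptions were MYL4, an embryonic and atrial light chain, at 42.9 CPM (38.8 to 47.4) in 132 Ujumqin members and 18.1 CPM (15.2 to 21.5) in 70 Hulunbuir members, and TNNI3, cardiac troponin I, at 4.21 and 13.3 CPM. In the HAND2 cells with TBX4, MYL4 had 29.6 and 14.2 CPM and TNNI3 4.95 and 13.4 CPM. The sarcomere list summed to 283 and 186 CPM, and most of the rest of it came from genes that smooth muscle and non-muscle cells also use: TPM1 (tropomyosin) had 116 and 114 CPM and ACTA2 (smooth muscle actin) 111 and 22.9 CPM.

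Most gut wall and coelomic lining genes were also scarce, but WNT2 and TCF21 were not. BARX1, NKX2-3, NKX3-2, OSR1, FOXL1 and TLX1, which pattern stomach and gut mesenchyme, had 0 UMIs in both libraries. WNT2, a ligand of foregut and allantoic mesoderm, was present at 16.3 CPM (13.8 to 19.1) and 24.1 CPM (20.7 to 28.0). Of the genes of the epicardium and coelomic lining, UPK3B and LRRN4 had 0 UMIs and WT1 had 0 and 0.137 CPM. TCF21, a bHLH factor of the epicardium and visceral mesenchyme, had 46.2 CPM (41.9 to 50.7) and 25.1 CPM (21.6 to 29.0). The epicardium and coelomic lining list summed to 50.3 and 30.3 CPM in the members, most of it TCF21. It summed to 18.3 and 26.2 CPM in the other non-erythroid cells, and to 39.0 and 26.3 CPM in the HAND2 cells with TBX4. The gut mesenchyme list summed to 29.4 and 53.1 CPM in the members, 19.4 and 52.5 CPM in the other non-erythroid cells, and 29.4 and 51.7 CPM in the cells with TBX4.

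Posterior genes were present. PITX1, the homeobox gene that acts with TBX4 in the hindlimb field, had 21.0 CPM (18.2 to 24.2) in 115 of 217 Ujumqin members and 32.0 CPM (28.0 to 36.4) in 150 of 333 Hulunbuir members. HOXA11 had 24.3 CPM (21.2 to 27.7) and 61.5 CPM (55.9 to 67.4), and HOXA13, the last gene of its cluster, had 4.31 CPM (3.08 to 5.87) and 21.8 CPM (18.6 to 25.5). In the HAND2 cells with TBX4, PITX1 had 23.3 and 32.9 CPM and HOXA11 28.0 and 76.9 CPM. The members thus held 3 genes of the allantois list, PITX1, HOXA11 and HOXA13, without TBX4 itself, which the rule had removed. Of the 8 genes of that list in the files, only these 3 had over 20 UMIs in the members of either library, so the list as a whole was not held. That list summed to 53.0 and 122 CPM in the members and to 25.4 and 104 CPM in the other non-erythroid cells. In HAND2 cells without GATA4, TBX5 and TBX4 it summed to 46.4 and 119 CPM, so these genes were not particular to the members. NKX2-5 was nearly absent from the other cells too, and heart muscle genes mark muscle rather than a field, so neither decides the name. The genes read here do not settle the heart-field part of the name. The heart-field list, like the allantois list, was higher in the members than in the other non-erythroid cells. The cells are called HAND2 members below.

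**Figure D1:**
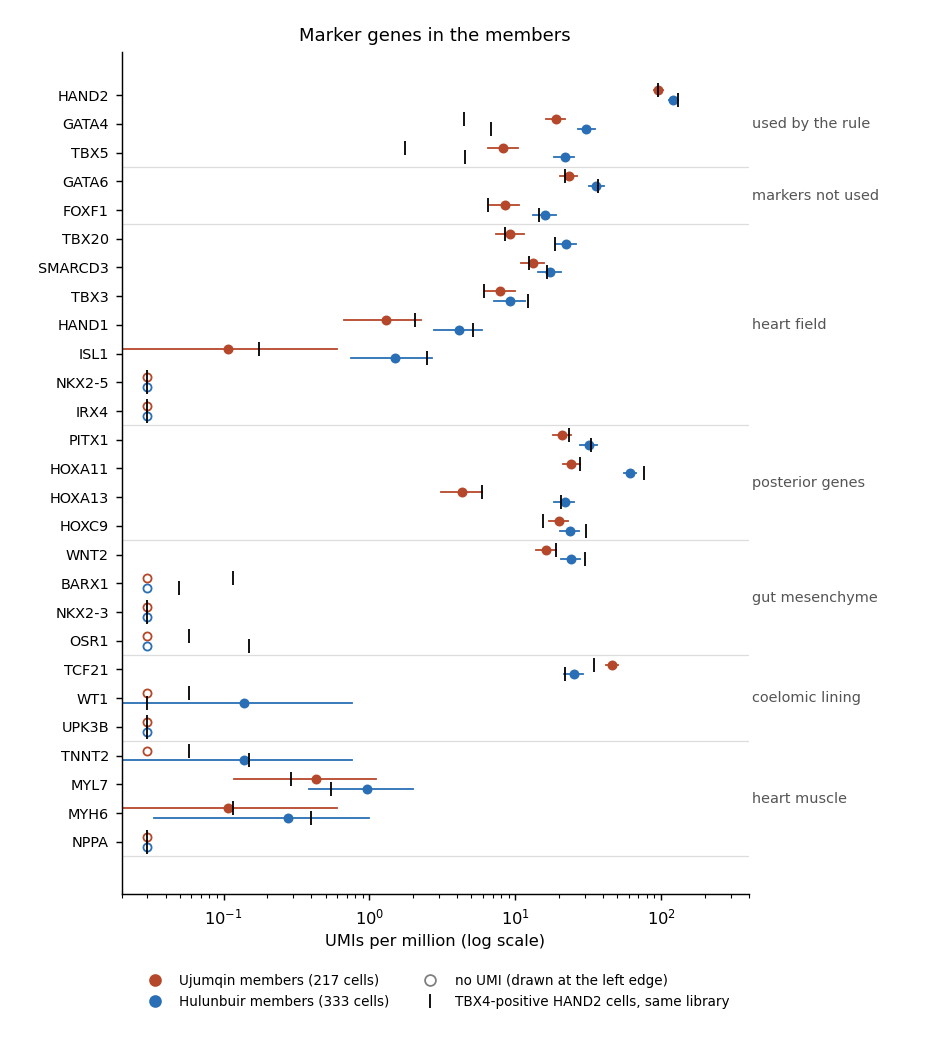
Levels of marker genes in the HAND2 members, in CPM on a log axis, with 95% counting intervals as horizontal lines. Filled circles are the members of each library, open circles at the left edge have no UMI, and black bars are the HAND2 cells with TBX4 of the same library. GATA4 and TBX5, which the rule used, stand to the right of their bars, while GATA6 (23.3 and 36.1 CPM) and PITX1 lie on or next to theirs and NKX2-5 has no UMI.

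The other two proposed markers, which the rule did not use, were present in part of the members. GATA6 was found in 119 of 217 Ujumqin and 167 of 333 Hulunbuir members, at 23.3 CPM (20.3 to 26.6) and 36.1 CPM (31.9 to 40.7). Its level in HAND2 cells with TBX4 was 22.0 CPM (19.9 to 24.4) and 37.1 CPM (34.5 to 39.9), so the intervals overlapped in both libraries. FOXF1 was found in 53 and 93 members, at 8.52 CPM (6.74 to 10.6) and 15.9 CPM (13.2 to 19.1), against 6.52 CPM (5.37 to 7.85) and 14.6 CPM (12.9 to 16.3) in the cells with TBX4. For FOXF1, too, the intervals overlapped.

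Shares of cells with a UMI depend on depth, so cells were also thinned to 2000 UMIs each. GATA6 was then detected in 3.23% of Ujumqin members (1.31 to 6.53%) and 6.63% of Hulunbuir members (4.20 to 9.86%), down from 54.8% and 50.2% at full depth. HOXA11 was detected in 3.23% (1.31 to 6.53%) and 13.3% (9.80 to 17.4%), down from 54.4% and 61.9%. As a background, GATA6 was found in 0.0496% of the thinned Ujumqin erythroid cells, which should lack it, and HOXA11 in 0 of 2016, which allows a share of up to 0.183%. The erythroid cells had a median of 19686 UMIs before thinning. Hulunbuir held 1 erythroid cell and gives no such background. The genes of higher level kept high shares after thinning. COL1A1 (type I collagen) was detected in 92.2% of Ujumqin and 61.4% of Hulunbuir members, and KRT18 (a simple epithelial keratin) in 69.6% and 78.9%, against 1.84% and 3.22% in the Ujumqin erythroid cells. The thinned HAND2 cells with TBX4 had similar or higher shares. There GATA6 was detected in 3.51 and 8.38%, HOXA11 in 4.68 and 13.9%, COL1A1 in 96.2 and 61.6% and KRT18 in 70.8 and 86.1%.

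The HAND2 members were next compared with the 342 Ujumqin and 919 Hulunbuir HAND2 cells that had TBX4, within each library. Of 6788 genes with at least 50 UMIs in both groups together in each library, 2 were at least 2-fold higher in the members in both libraries (0.0295%) and 1 was at least 2-fold lower (0.0147%). The genes were GATA4, TBX5 and TBX4, the 3 by which the groups had been chosen. GATA4 had 19.0 and 30.7 CPM in the members against 4.49 and 6.78 CPM, and TBX5 had 8.30 and 21.8 CPM against 1.75 and 4.504 CPM. Under 2-fold apart were 99.4% of the genes in Ujumqin and 99.7% in Hulunbuir, and the median log2 ratio was 0.03 and 0.01. HAND2 itself had 95.9 CPM (89.7 to 102) against 95.3 CPM (90.7 to 100) in Ujumqin and 122 CPM (114 to 130) against 131 CPM (126 to 136) in Hulunbuir.

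Smaller differences from the TBX4-positive cells went one way in both libraries for some genes. KRT18 had 1340 CPM in Ujumqin members against 2018 CPM, and 2994 against 3773 CPM in Hulunbuir. KRT19, its partner in simple epithelia, had 1163 against 2033 CPM and 2759 against 3449 CPM. Both keratins were thus lower in the members of both libraries. VIM (vimentin, the mesenchymal filament) was higher in the members, at 5052 against 4186 CPM and 1812 against 1219 CPM. Without 3 small subgroups of the members, described further on, the Hulunbuir value was 1292 CPM. HHIP, a membrane protein that binds Hedgehog ligands and is one of their target genes, had 19.4 against 11.8 CPM and 8.37 against 5.05 CPM. PLVAP, an endothelial membrane protein, had 50.5 against 31.6 CPM and 116 against 75.03 CPM. The Hulunbuir direction of PLVAP turned without those subgroups, which left 26.4 CPM in the members. The cells with TBX4 were not trimmed in the same way.

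**Figure D2:**
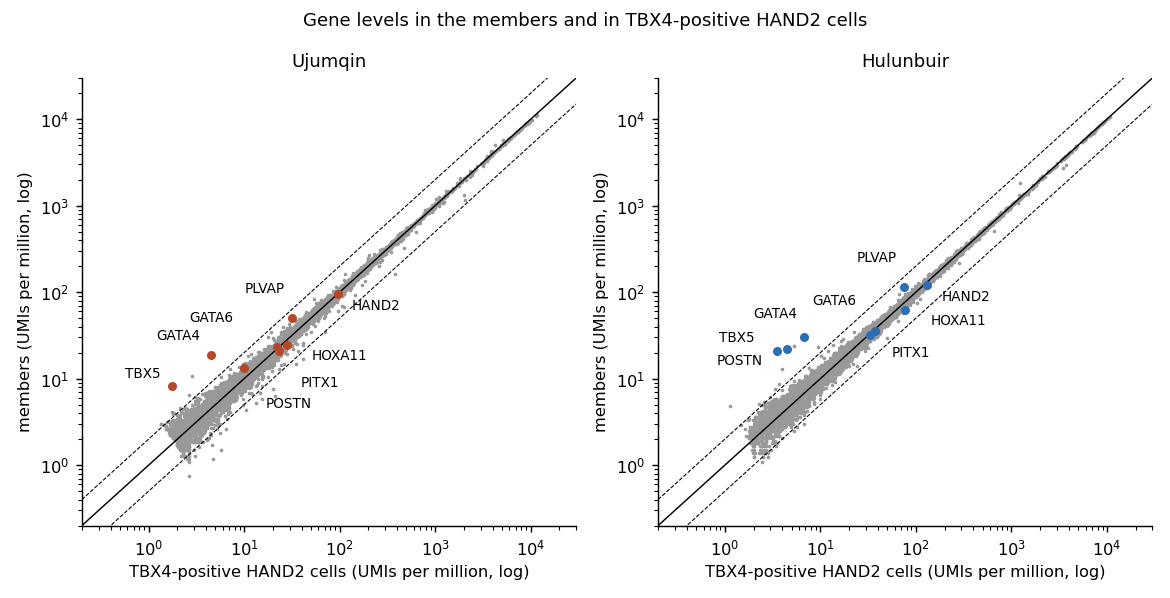
Each point is 1 gene, with its level in HAND2 cells with TBX4 on the horizontal and in the HAND2 members on the vertical axis, both in CPM on log axes, for each library. The solid line marks equal levels and the dashed lines a 2-fold difference, and GATA4 and TBX5 are the named genes outside the lines in both libraries, while POSTN (21.0 CPM in Hulunbuir members) is outside in 1.

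TBX4 is itself seldom detected, so the split by TBX4 was examined by thinning. Of the HAND2 cells with TBX4 at full depth, 15.8% in Ujumqin and 34.0% in Hulunbuir still had a TBX4 UMI at 5000 UMIs per cell. At full depth, GATA4 or TBX5 was found in 25.1% of Ujumqin HAND2 cells with TBX4 and in 17.5% of those without. In Hulunbuir the shares were 20.7% and 11.9%. After thinning to 5000 UMIs they were 1.47% (0.478 to 3.39%) and 3.13% (2.18 to 4.34%) in Ujumqin, and 4.95% (3.63 to 6.57%) and 3.56% (2.87 to 4.36%) in Hulunbuir. The order reversed with thinning in Ujumqin and held in Hulunbuir, and the thinned intervals overlapped in both. These values do not show that GATA4 and TBX5 avoid cells with TBX4.

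Against the 1024 Ujumqin and 2458 Hulunbuir HAND2 cells that had neither GATA4, TBX5 nor TBX4, 2 of 7487 genes were at least 2-fold higher in the members in both libraries (0.0267%), again GATA4 and TBX5. At least 2-fold lower were 46 genes (0.614%). Several of them belong to other tissues. CRABP1, a retinoic acid binding protein of neural crest and mesenchyme, had 1.29 against 19.9 CPM in Ujumqin and 40.5 against 191 CPM in Hulunbuir. COL2A1, the cartilage and notochord collagen, had 1.62 against 5.49 CPM and 7.68 against 46.0 CPM. KDR, the VEGF receptor of endothelium, had 3.56 against 18.4 CPM and 10.8 against 22.8 CPM, and CD24, a surface protein of many epithelial progenitors, had 2.16 against 9.11 CPM and 23.7 against 105 CPM. These 4 genes were picked from the 46 after their values were seen. The cells compared were shallower, with medians of 25118.5 and 14618 UMIs.

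Against all other non-erythroid cells of the same library, 53 of 9799 genes were at least 2-fold higher in the members in both libraries (0.541%) and 352 at least 2-fold lower (3.59%). Since the members were picked out of the same cells, these ratios describe them and carry no test. The 53 include GATA4 and TBX5, which the rule used, so their place was fixed in advance. NEBL (nebulette, an actin-binding protein) led the genes with at least 50 CPM, with 52.5 against 17.9 CPM in Ujumqin and 79.7 against 36.9 CPM in Hulunbuir. REG4, a secreted lectin, followed with 268 against 74.96 CPM and 156 against 74.5 CPM. These 2 were the only ones of the 15 leading genes, ranked by the smaller of the library ratios, that were at least 2-fold higher in both libraries. The other 13 were at least 2-fold higher in Ujumqin alone, with Hulunbuir ratios from 1.70 (COL18A1) to 1.98 (A2M). They were the collagens COL1A1, COL1A2, COL11A1, COL12A1 and COL18A1, the small proteoglycan LUM (lumican), the collagen hydroxylase P4HA1, the retinol carrier RBP4, the protease inhibitor A2M, the scaffold AKAP12, the Hippo pathway factor TEAD4, PDLIM3 and HAND2, which the rule required.

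This list depended on which cells counted as others. Of the 12002 other Ujumqin cells, 7099 had under 5 per 10000 erythroid UMIs, against 9246 of 9249 in Hulunbuir. The median log2 ratio over all genes tested was 0.44 in Ujumqin against 0.02 in Hulunbuir. With the erythroid limit lowered to 5 per 10000 UMIs, a setting chosen after seeing the data, the Ujumqin median was 0.06. Then 6 of 9424 genes were at least 2-fold higher in both libraries (0.0637%) and 444 at least 2-fold lower (4.71%). The 6 were RGS4, CELF2, ROR1, REG4 and the rule's own genes TBX5 and GATA4, whose place was set by the choice of members. NEBL, at 52.5 CPM in Ujumqin members, then had 30.5 CPM in the others, a log2 ratio of 0.79.

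Genes of other cell types were read in the members as whole lists. The 5 notochord genes, T, NOTO, CHRD, SHH and FOXA2, had 0 UMIs in both libraries. The neural list summed to 0.431 and 5.63 CPM, the second almost all SOX2. The erythroid list summed to 70.0 CPM in Ujumqin members and 1.10 CPM in Hulunbuir members, against 702 and 1.09 CPM in the other non-erythroid cells. The list of extraembryonic endoderm summed to 610 and 122 CPM, against 7922 and 271 CPM in the others, with APOA1 giving 493 and 121 CPM of it. The endothelial list summed to 23.5 and 45.3 CPM, with CLDN5 at 0 in both libraries and CDH5 at 0 and 0.549 CPM. Of the gut endoderm list, FOXA2, FOXA3, SOX17 and CDH1 had no UMI, and nearly all of its 1409 and 3213 CPM came from KRT18. The part of these cell types in the results was not tested.

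HOX genes give the position of a mesodermal cell along the body axis, with high paralogue numbers toward the tail. The 38 HOX genes in the files summed to 88.0 CPM in Ujumqin members and 193 CPM in Hulunbuir members. Group 1 to 4 genes were near 0, the highest being HOXA3 at 0.431 and 2.88 CPM. The sum lay mostly in groups 9 to 13. HOXC9 had 19.95 CPM (17.2 to 23.0) and 23.6 CPM (20.2 to 27.4), HOXA9 7.66 and 14.4 CPM, and HOXC12 7.66 and 16.7 CPM. HOXB genes were almost absent, with HOXB9 at 0.108 and 3.16 CPM. Against the other non-erythroid cells, 23 HOX genes could be compared in both libraries: 1 (HOXC12) was at least 2-fold higher in the members of both and 8 at least 2-fold lower, where 0.541% and 3.59% of all 9799 genes were. At the erythroid limit of 5 per 10000 UMIs, HOXC12 was 1.84-fold higher in Ujumqin and no longer passed 2-fold.

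**Figure D3:**
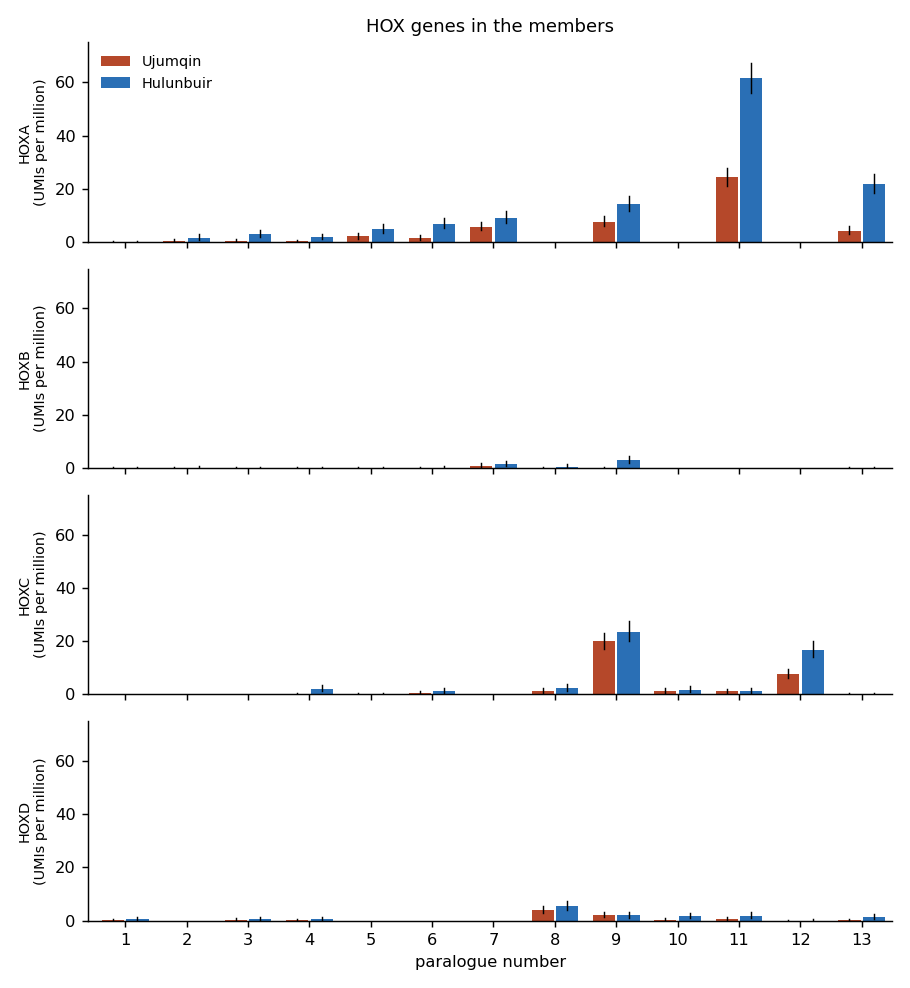
HOX genes in the HAND2 members, in CPM, with 1 panel for each cluster and paralogue numbers along the horizontal axis. Bars are the 2 libraries and lines the 95% counting intervals. HOXA11 (24.3 and 61.5 CPM), HOXA13, HOXC9 and HOXC12 stand out, and the HOXB panel is nearly empty.

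Signalling genes of the members were read by role. Among BMP ligands, BMP7 had 66.3 and 39.5 CPM, BMP4 10.0 and 25.5 CPM, BMP5 19.4 and 18.4 CPM, and BMP2 2.26 and 2.06 CPM. The receptor BMPR2 had 9.71 and 10.6 CPM, and the signal carrier SMAD5 22.1 and 25.4 CPM. BAMBI, a decoy receptor that dampens BMP signals, had 358 and 407 CPM and was found in 211 of 217 and 329 of 333 members. The secreted BMP inhibitors GREM1 and CHRD had 0 UMIs in both libraries and NOG had 0.108 and 0.686 CPM.

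In the WNT list, RSPO3, a secreted amplifier of WNT signals, had 223 CPM (213 to 232) and 166 CPM (157 to 176). The receptor FZD4 had 10.6 and 20.2 CPM and the secreted modulator SFRP2 14.9 and 22.9 CPM. AXIN2, a feedback target of the pathway, had 0.431 and 0.549 CPM, and TCF7 had 0 UMIs. For Hedgehog signals, the ligands SHH and IHH had 0 UMIs, while the receptor PTCH1 had 6.58 and 13.3 CPM. In the FGF list, FGF10 had 5.82 and 5.90 CPM, the receptor FGFR1 3.99 and 10.7 CPM, and DUSP6, a feedback phosphatase, 13.05 and 13.996 CPM. In Hulunbuir, the 33 cells of a subgroup led by STMN2 held 62 of the DUSP6 UMIs and the other members 40, at 80.3 against 6.14 CPM. In the retinoic acid list, ALDH1A2, which makes retinoic acid in mesoderm, had 0.971 and 2.61 CPM, and CRABP2, a carrier of retinoic acid in the cell, had 35.8 and 47.1 CPM.

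Between the libraries, 571 of 6480 genes with at least 50 UMIs were at least 2-fold higher in Hulunbuir members (8.81%) and 153 at least 2-fold lower (2.36%), with a median log2 ratio of 0.25 over all genes tested. ID3, an inhibitor of bHLH factors and a BMP target, had 47.9 CPM (43.5 to 52.5) in Ujumqin and 477 CPM (461 to 493) in Hulunbuir, a log2 ratio of 3.32 (3.17 to 3.46). The linker histone genes H1-2, H1-4 and H1-3 had log2 ratios of 2.65, 2.39 and 2.24, the histone gene HIST2H2AC 2.65, and the stress-induced GADD45G 2.65. The other genes among the 10 highest were ATP1B1 (2.54), IER5L (1.92), IGFBP2 (1.89) and PAWR (1.84).

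The same ratios in the HAND2 cells with TBX4 were close for most of these genes. ID3 had 3.24 there, GADD45G 2.94 and H1-2 2.84. ATP1B1, a sodium pump subunit, had 1.25 there, and its Ujumqin level was 14.9 CPM in the members and 35.3 CPM in the cells with TBX4. IGFBP2, which binds insulin-like growth factors, had 2.51 there. No test of these differences is possible with 1 library per breed.

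Among the genes lower in Hulunbuir members, AHSG, a fetal liver and yolk sac secreted protein that the rule limited, had 53.9 CPM in Ujumqin and 0.137 CPM in Hulunbuir, where it rested on 1 cell. Its log2 ratio was -8.62 (-13.92 to -6.13), and in the other non-erythroid cells the extraembryonic endoderm list moved the same way (7922 and 271 CPM). LGALS3, a galectin, had 473 CPM (459 to 487) and 36.4 CPM (32.1 to 41.0), a log2 ratio of -3.70. RARRES1 followed with -2.67, the immediate-early gene FOS with -2.46, ANXA1 and ACTA2 with -2.28 each, APOA1 with -2.02, COL3A1 with -1.96, FCGRT with -1.89 and FST, an activin and BMP inhibitor, with -1.81. The ACTA2 ratio depended on how the members were chosen. It was -0.73 with cells thinned to 5000 UMIs first and -0.38 with at least 2 UMIs of GATA4 or of TBX5, both under 2-fold, and -3.92 with TBX5 required. The ratios in the HAND2 cells with TBX4 lay on the same side of 0 for every one of these 10 genes.

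**Figure D4:**
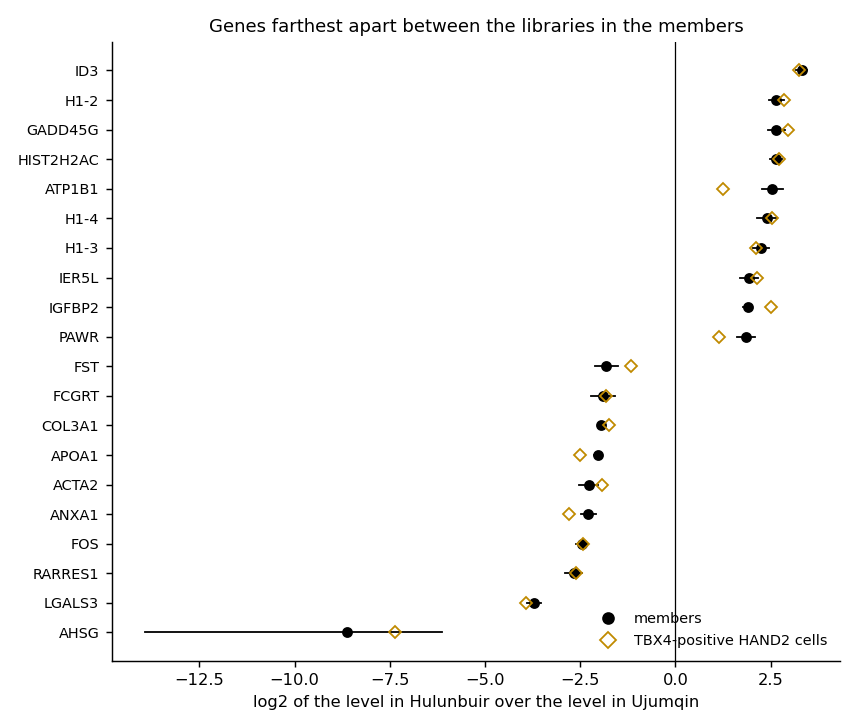
Log2 ratio of the Hulunbuir over the Ujumqin level for the 10 genes highest and the 10 lowest in Hulunbuir HAND2 members among those with at least 50 CPM in the higher library. Filled circles with 95% counting intervals are the members, open diamonds the HAND2 cells with TBX4. ID3 is highest at 3.32, AHSG lowest at -8.62, and the diamond of ATP1B1 (1.25) lies far from its circle (2.54).

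Gene lists moved unevenly between the libraries. Of 15 extracellular matrix genes that could be compared, 0 were at least 2-fold higher in Hulunbuir members and 5 were at least 2-fold lower, with a list median of -0.64. Of all 6480 genes, 8.81% were higher and 2.36% lower, with a median of 0.25. These 5 were COL1A1 (1968 and 698 CPM), COL1A2 (1211 and 463 CPM), COL3A1 (1182 and 305 CPM), LUM (1987 and 729 CPM) and DCN (1200 and 493 CPM). They encode the fibrillar collagens and the proteoglycans that bind them. The basement membrane collagen COL4A1 differed less, at 569 and 439 CPM. Of 9 HOX genes compared, 5 were at least 2-fold higher and none lower, with a median of 1.13, beside the same 8.81% and 2.36% of all genes. This rise was not particular to the members, whose HOX sum was 88.0 and 193 CPM. The sum was 86.6 and 239 CPM in the HAND2 cells with TBX4. It was 89.4 and 331 CPM in HAND2 cells without GATA4, TBX5 and TBX4, and 66.3 and 376 CPM in the other non-erythroid cells. HOXA11 had a log2 ratio of 1.34 (1.11 to 1.58) and HOXA13 2.34 (1.83 to 2.88), while HOXC9 had 0.24 (-0.07 to 0.55).

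Of the 5 proposed markers, TBX5 was at least 2-fold higher in Hulunbuir members, with a log2 ratio of 1.39, but its level there is partly set by the rule. GATA6, outside the rule, had a log2 ratio of 0.63 (0.37 to 0.90) and FOXF1 0.90 (0.48 to 1.33). Of 4 limb and somatic mesoderm genes compared, 2 were at least 2-fold higher in Hulunbuir members, beside 8.81% of all genes, and so few genes say nothing of the list. PRRX1, a homeobox gene of limb and body wall mesenchyme, had 3.13 CPM (2.09 to 4.49) and 24.4 CPM (21.0 to 28.3), and TWIST1, a bHLH factor of mesenchyme, had 17.9 CPM (15.3 to 20.8) and 46.5 CPM (41.7 to 51.7). In the HAND2 cells with TBX4 their log2 ratios were 2.44 and 1.39.

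The pathway lists held few genes that could be compared, so their counts are given beside the 8.81% of all genes that were higher and the 2.36% that were lower, and nothing is read from them about a pathway. Of 12 BMP genes compared, 3 were at least 2-fold higher and 1 was lower, with a median of 0.15. The 3 were ID3, ID1 (217 and 516 CPM), another inhibitor of bHLH factors, and BMP4, with a log2 ratio of 1.35 (0.98 to 1.72). Of 7 WNT genes compared, 2 were at least 2-fold higher and 0 lower: SFRP1 at 1.94 and 6.31 CPM and CTNNB1 (beta-catenin) at 17.7 and 44.7 CPM. In the Hedgehog list, 1 of 2 genes was higher and 1 lower: PTCH1 had a log2 ratio of 1.02 and HHIP -1.21. Of 17 cell cycle genes compared, none passed 2-fold in either direction, but the list median was 0.52, and TOP2A, which untangles replicated DNA, had 228 and 433 CPM. Of 6 immediate-early and stress genes compared, 3 were at least 2-fold lower in Hulunbuir, FOS, ATF3 (16.2 and 4.94 CPM) and the metallothionein MT2 (16.8 and 4.94 CPM). JUN had 262 and 257 CPM. KRT18 and KRT8, the gut endoderm genes compared, were both over 2-fold higher in Hulunbuir, and KRT19 had 1163 and 2759 CPM.

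Members chosen by GATA4 and members chosen by TBX5 were set side by side. GATA6 had 23.1 and 22.6 CPM in the GATA4-only and TBX5-only members of Ujumqin, and 35.6 and 37.5 CPM in those of Hulunbuir. HOXA11 had 25.1 and 22.2 CPM, and 60.0 and 58.9 CPM. The intervals of both log2 ratios spanned 0 in each library. TOP2A was higher with GATA4 in both libraries, with a log2 ratio of 0.34 (0.18 to 0.49 in Ujumqin, 0.23 to 0.45 in Hulunbuir). KRT18 was also higher with GATA4, by a log2 ratio of 0.28 and 0.22. HAND2 had 102 and 78.7 CPM in Ujumqin, a log2 ratio of 0.38 (0.15 to 0.62), and 124 and 118 CPM in Hulunbuir, 0.07 (-0.14 to 0.28).

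The members were not uniform. Clustered on their own in each library at a resolution of 0.5, they formed 6 subgroups in Ujumqin and 6 in Hulunbuir, named here only by the genes that led them. In Ujumqin, 53 cells were led by EDNRB, ACTA2 and RCAN2, with ACTA2 at 315 CPM against 54.5 CPM in the other members. A second subgroup of 48 cells was led by GNG11, FST and CRABP2, and 45 cells by ID1, NOVA1 and EDNRA. In 38 cells DSP, HMMR and SMG1 led and TOP2A reached 453 CPM. A further 22 cells were led by NEBL, KRT8 and S100A2, with KRT18 at 4097 CPM, and the last 11 cells by KLF1, HEMGN, ALAS2 and AHSP.

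In Hulunbuir, the 2 largest subgroups had the highest keratin levels. One of 87 cells was led by DSP, AKAP12 and ITGA6 with KRT18 at 4833 CPM, and one of 72 cells by LSR, LLGL2 and S100A16 with KRT18 at 5027 CPM. The subgroups of 65 cells (PLA2G7, INKA1 and APOBEC3Z3) and 62 cells (EDNRB, VCAN and VCL) had KRT18 at 502 and 635 CPM. The remaining 33 cells were led by STMN2, SOX2 and POSTN, and 14 cells by RASIP1, CD93 and NOS3, endothelial genes, with PLVAP at 1536 CPM and COL1A1 at 21.7 CPM. KRT18 thus ranged from 98.8 to 5027 CPM among the Hulunbuir subgroups and from 445 to 4097 CPM among the Ujumqin ones, a wider range than its difference between the libraries.

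GATA6 and HOXA11, which the rule did not use, were found in every subgroup. HAND2, which every member had by the rule, lay between 68.1 and 109 CPM in the Ujumqin subgroups and between 77.1 and 132 CPM in the Hulunbuir ones. GATA6 ranged from 18.6 to 29.7 CPM and from 19.4 to 42.7 CPM. HOXA11 ranged from 12.2 to 34.9 CPM and from 28.9 to 77.0 CPM, with the lowest value of each library in the subgroup led by KLF1 and in that led by RASIP1. The 3 subgroups led by blood, neural and endothelial genes also held many of the high doublet scores, which were found in 8 of 11 cells led by KLF1, 16 of 33 led by STMN2 and 8 of 14 led by RASIP1.

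**Figure D5:**
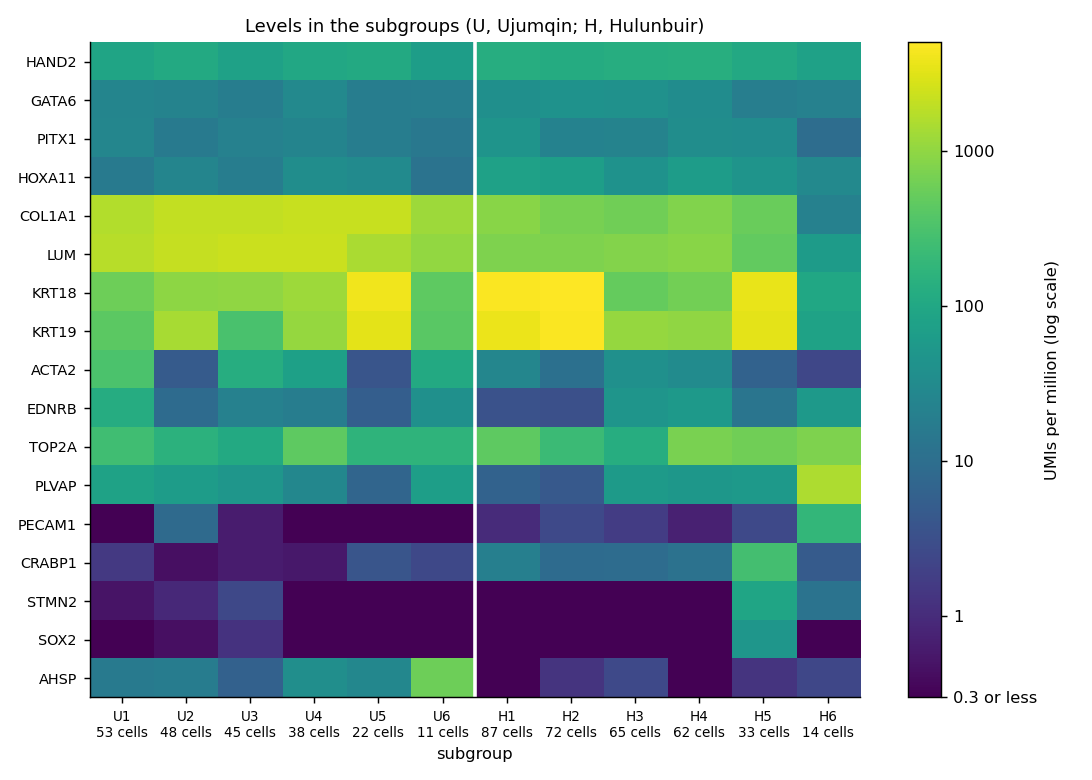
Levels of 17 genes in the 12 subgroups of the HAND2 members, as colour on a log scale in CPM, with the Ujumqin subgroups left of the white line and the Hulunbuir ones right of it. GATA6, PITX1 and HOXA11 are found in every subgroup, as is HAND2, which the rule required. KRT18 is high in U5, H1, H2 and H5, PLVAP and PECAM1 in H6, STMN2 and SOX2 in H5 and AHSP in U6.

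Some differences rested on these 3 subgroups. Without them, 206 Ujumqin and 286 Hulunbuir members were left, while the cells with TBX4 were kept whole. PLVAP in Hulunbuir then had 26.4 CPM instead of 116 CPM, less than in the cells with TBX4 (75.03 CPM), and PECAM1, an endothelial adhesion protein, 1.48 instead of 12.1 CPM. POSTN, a matrix protein, had 4.59 instead of 21.0 CPM. CRABP1 had 13.3 instead of 40.5 CPM. SOX2 and STMN2 had 0 UMIs in Hulunbuir. VIM there had 1292 instead of 1812 CPM, next to 1219 CPM in the cells with TBX4. AHSP in Ujumqin had 20.3 instead of 45.6 CPM. GATA6 had 23.5 and 39.2 CPM, PITX1 21.3 and 33.3 CPM and HOXA11 24.8 and 65.7 CPM, each within the interval of its value over all members.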

How the data were processed

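The deposited values were counts of UMIs for 26478 features and each barcode of 1 10x library per breed, which the authors made with Cell Ranger (5.0.0 in the matrix headers, 3.1.0 in the submitters' processing notes, which also list Seurat 3.2.0 and R 3.6.1) and did not normalize. Of the features, 9808 carried no symbol and were kept under their identifiers. Where a symbol stood on more than 1 feature, as 83 did, the first was used. UMIs of a group of cells were summed and divided by the group's total. Ratios used sums, with a floor of 3 counts for a count of 0, a 2-fold limit as a description of size and at least 50 UMIs. No significance test was run, since each breed had 1 library. Libraries held 17059 and 10709 barcodes. Subgroups came from Leiden clustering (2000 variable genes, 20 components, 15 neighbours). Scrublet's automatic call marked 1.30% of Ujumqin and 0.0104% of Hulunbuir cells, the second too few to be used, so ranks were used (0.8% per 1000 barcodes). A copy of the fold rule and the thinning were tried on simulated counts, while the interval code was not.

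The members and all gene lists were chosen with earlier results of these data known. Named genes were the rule's genes, members of the lists with at least 20 UMIs or reported as absent, the 15 leading genes over other cells and the 10 highest and 10 lowest between libraries, the 5 leading genes of each subgroup (some given by 3) and the HOX genes. The tools were scanpy 1.11.5, leidenalg 0.10.2, pandas 2.3.3, scipy 1.17.1, matplotlib 3.10.9 and numpy 2.4.6 under Python 3.11.15. Some genes of the lists are not reported here.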

Additional observations from a re-analysis of the deposited data

Results flagged for a closer look

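For 4 genes the library difference in the HAND2 members ran opposite to that in the HAND2 cells with TBX4, with counting intervals that did not span 0. The difference between the groups was not tested, since each breed has 1 library. POSTN had a log2 ratio of Hulunbuir over Ujumqin of 0.66 in the members and -1.50 in the cells with TBX4, and IGFBP3, a carrier of insulin-like growth factors, had 1.15 and -1.27. Both genes led the 33 Hulunbuir members of the subgroup led by STMN2, where POSTN had 150 CPM against 5.68 CPM in the other members and IGFBP3 92.0 against 3.53 CPM. Without the subgroups led by KLF1, STMN2 and RASIP1, POSTN was lower in Hulunbuir than in Ujumqin members. Its opposite direction in the members therefore rested on those subgroups. The ratios of IGFBP3, HAPLN1 and GNG11 were not recomputed without them. HAPLN1, which links hyaluronan to proteoglycans, had 0.98 and -0.52, from 14.6 and 28.7 CPM in the members and 24.6 and 17.2 CPM in the cells with TBX4. GNG11, a G protein subunit, had -0.65 and 0.24, from 34.8 and 22.2 CPM and 19.3 and 22.9 CPM. In Hulunbuir, the 14 members of the subgroup led by RASIP1 had GNG11 at 243 CPM against 8.88 CPM in the other members, which is 101 UMIs against 61.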

How the results depend on the processing

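No paired analysis was possible because each breed has 1 library. Of the 20 named library ratios, none changed sign under any alternative, but 1 fell under 2-fold and several changed in size. ACTA2, at -2.28, had -1.23 with at least 2 UMIs of HAND2, -0.73 with cells thinned to 5000 UMIs first, -0.38 with at least 2 UMIs of GATA4 or of TBX5, and -3.92 with TBX5 required. AHSG, at -8.62, had -3.44 with at least 2 UMIs of GATA4 or of TBX5 and -4.12 thinned. With TBX5 required, APOA1 went from -2.02 to -1.25 and FST from -1.81 to -1.003. Thinned, ID3 went from 3.32 to 4.67 and ATP1B1 from 2.54 to 1.60. Over these ratios and 8 shares of thinned members with FOXF1 or PITX1, 71 values moved by more than the counting interval of the value reported and 337 did not. The cause of the moves was not tested. The limits of 500 genes, 20 per 10000 liver-type UMIs, 200 UMIs, 1 UMI and 4-fold left the members and their sums unchanged. The minimum of 5000 UMIs per cell and the erythroid limit of 5 per 10000 UMIs did not enter these ratios. Under such settings the ratios are among the 337 and say nothing of stability or sign. The share of members was 1.49% in Ujumqin and 3.47% in Hulunbuir. It became 1.13 and 2.27% with at least 2 UMIs of HAND2, 1.08 and 2.15% with GATA4 required, 0.481 and 1.58% with TBX5 required, 0.174 and 0.809% with cells thinned to 5000 UMIs first, and 0.144 and 0.230% with at least 2 UMIs of GATA4 or of TBX5. The Ujumqin share was 2.15% with at least 500 genes and 1.77% without erythroid cells, and the Hulunbuir share 2.98% without the subgroups led by AHSP, STMN2 and PLVAP. Hulunbuir stayed above Ujumqin in each of these. The 571 genes higher in Hulunbuir became 339 (TBX5 required), 232 (thinned), 158 (at least 2 UMIs of GATA4 or of TBX5), 185 (at least 200 UMIs), 1833 (at least 1 UMI) and 87 (4-fold), and the 153 lower became 44, 58, 76, 562 and 48 under the last 5 of these.

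The 53 genes higher than in other cells became 80, 952, 1280, 24 and 2 with TBX5 required, thinned, at least 2 UMIs of GATA4 or of TBX5, at least 200 UMIs and 4-fold, 6 at an erythroid limit of 5 and 88 without the 3 subgroups. The counts of 952 and 1280 rest on few members (14 and 61, and 21 and 22). The 2 genes left at 4-fold were GATA4 and TBX5, which the rule used. The 3 genes apart from the cells with TBX4 became 5 with under 2 UMIs over ACTC1 and TNNC1 (ACTC1 and NR2F2 added), 5 without high doublet scores (CRABP1 and a feature without symbol added), 7 without the 3 subgroups, 32 thinned and 41 with at least 2 UMIs of GATA4 or of TBX5. GATA6 was found in 11.6 and 17.6% of members thinned to 5000 UMIs and HOXA11 in 10.6 and 26.7%. In Hulunbuir thinned to 1000 UMIs the shares were 3.00 and 5.71%. The settings on 2 UMIs of GATA4 or of TBX5, the erythroid limit of 5 and the 3 subgroups were chosen after seeing the data. Depth limits every statement on GATA4, TBX5 and TBX4, most of which rest on 1 UMI per cell.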
